A study of Xenopus laevis with 11 samples.

Results

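The genes described here are 5 regulators of endoderm, sox17a, mix1, gata4, gata5 and gata6, each with a copy on the L and on the S subgenome of the allotetraploid frog Xenopus laevis. They were chosen by name, and all 10 copies were found among 34461 protein-coding genes annotated on the 18 chromosomes of the v10.1 assembly. An accessible region was assigned to a copy when its summit, the base of highest coverage, lay within 50 kb of either end of the gene. By this rule 89 of 58215 regions were assigned, 50 to L copies and 39 to S copies, and no region was counted for more than 1 copy.

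Accessible chromatin was measured by ATAC-seq, in which the transposase Tn5 inserts adapters into DNA that is not wrapped in nucleosomes. The tissue was the animal cap, the ectodermal roof of the blastula, taken from wild-type (WT) embryos of the strain labelled Xla.NXR-WTNXR at stages NF8 and NF9, with 2 caps in each reaction and no treatment. Of the 11 libraries, 5 came from stage 8 (3 replicates) and 6 from stage 9 (4 replicates), and the study's methods describe eggs of pooled mothers. Of these libraries, 3 of stage 8 and 4 of stage 9 were size selected. By the methods, the first 2 replicates of each stage were sequenced, then size selected and sequenced again. Later replicates were sequenced only as short, size-selected fragments, so the stage 9 pool mixes both kinds. The peak list used here was called by the authors on the stage 9 libraries as a pool. Stage 8, and stage 9 replicate by replicate, were not analysed here. No value below therefore has a spread between replicates, and no comparison of stages was made.

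Endoderm of the frog forms in the yolk-rich vegetal cells, where the maternal T-box factor VegT switches on Nodal ligands and a first tier of zygotic transcription factors. Mix1 is a paired-type homeodomain protein of the Mix/Bix family, which responds to VegT and Nodal signals. Sox17 proteins carry an HMG-box and commit cells to endoderm. Gata4, Gata5 and Gata6 are zinc-finger factors of the endoderm and the heart, while the related Gata2 and Gata3 act in ventral ectoderm and epidermis. The explants hold the opposite pole of the embryo. The study links genome activation in the blastula to the onset of pluripotency. It also used data that follow animal caps from pluripotency into several lineages, endoderm among them. The caps are therefore not taken here as committed ectoderm. The question put to the data is what chromatin around endoderm regulators looks like in such blastula caps. No RNA was measured in these libraries, and the identity of the tissue rests on the dissection.

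Each region of the list has a fold enrichment, the ratio of fragment coverage at its summit to the local background. A pseudocount of 1 is added to each. The control for this background was CUT&RUN without antibody, a different assay, so fold enrichments also vary with that control. The number of fragments at each summit was recovered from the fold enrichment and the deposited p-value. It is given with an exact 95% Poisson interval, which covers counting error only. The median region of the whole list had 9 fragments and a fold enrichment of 5.51, and no called region had fewer than 5 fragments. The 89 regions at the endoderm regulators were of the same strength, with a median of 9 fragments (5 to 29), a fold enrichment of 5.24 and a width of 158 bp against 155 bp over the list. A strong region is here one with a −log10 q-value of at least 10, and these made up 22.5% of the 89 regions and 20.4% of all regions. Places without a region were not shown to be closed, since accessibility there was only not detectable at this depth. In bulk tissue, a site that is open in few cells and one that is weakly open in all of them cannot be told apart.

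Accessible regions were present around every copy, from 2 at gata6.S to 17 at mix1.L, with a median of 7.5 against 3 for the median protein-coding gene. Of the 10 copies, 8 had a region within 1 kb of an end, where 47.8% of all protein-coding genes had one. The exceptions were gata4.L and gata4.S. A distal region, with its summit more than 1 kb from the ends of any protein-coding or lncRNA gene, lay within 10 kb of 6 copies (35.9% of all genes) and within 50 kb of all 10 copies (68.3% of all genes). A strong region lay within 50 kb of 8 copies, all but gata5.L and gata5.S, against 50.6% of all genes. Genes with a name had regions nearby more often, and the first 3 of these backgrounds became 60.9%, 40.9% and 73.6% among them. The copies form 5 pairs of related sequence and were chosen with these data known, so the counts are set beside the backgrounds without a test.

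**Figure D1:**
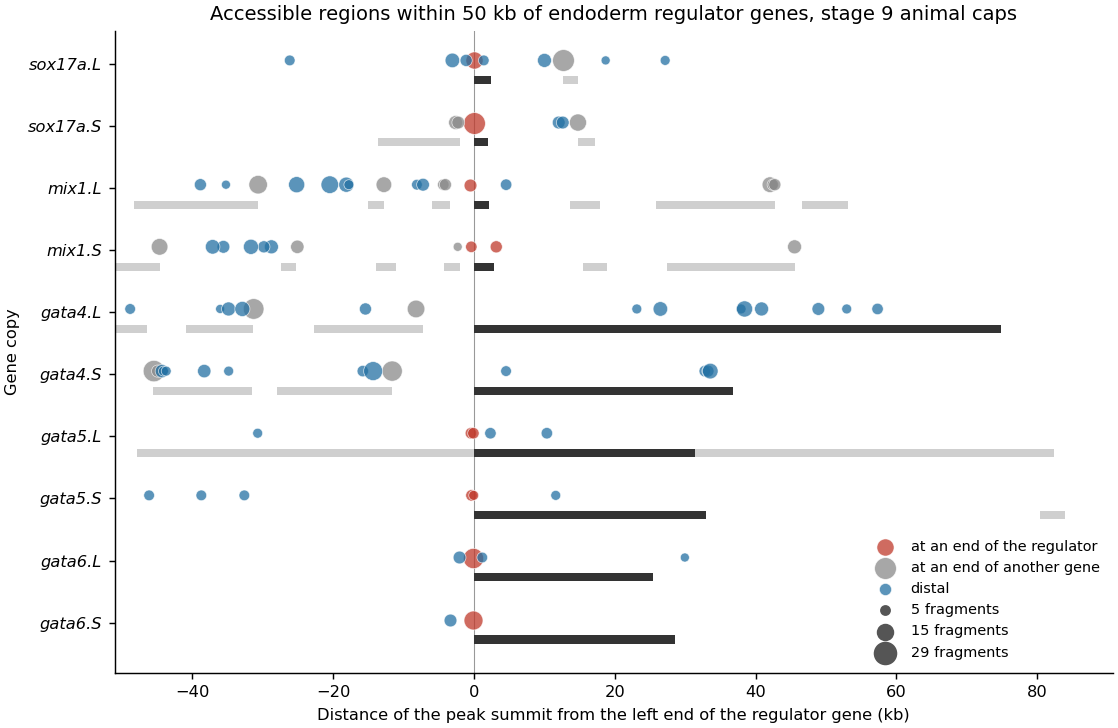
Each point is 1 accessible region of stage 9 animal caps, placed by the distance of its summit from the left end of the gene in kb, with its area scaled to the fragments at the summit (5 to 29). Dark bars are the 10 regulator copies, grey bars are other annotated genes, and the surroundings of mix1.S are drawn in the gene order of mix1.L. Red points at the left end are seen for sox17a, mix1, gata5 and gata6 but not for gata4, whose regions lie inside the gene, at the ends of its neighbours or in distal places outside it.

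Many of the strongest regions in these windows lay at other genes. Of the 19 regions with 15 or more fragments, 4 were at an end of a regulator, 10 at an end of another gene and 5 were distal. The same split was not taken over the whole list. High coverage at gene ends is general there, with a median of 14 fragments at the strongest end region of a gene and 9 over all regions. Distal regions made up 65.2% of the 89 regions and 59.4% of all regions. Over all 89 regions, the nearest annotated gene end was one of the regulator itself for 35, and 18 had the summit inside a regulator. Nearness was taken to gene ends, so a summit inside 1 gene can be nearest to an end of another. Of the 11 regions within 1 kb of a regulator end, 10 lay at the same end of the gene in both subgenomes, the left end in the L gene order. That count was not set beside other homeolog pairs. The gene table used here gives no strand, so ends are not named as starts of transcription.

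sox17a, which encodes an HMG-box determinant of endoderm, lies at 6L:122899051-122901477 (2427 bp) and at 6S:100710610-100712577 (1968 bp). Each copy had 1 region at its left end. At sox17a.L it spanned 6L:122898853-122899230 with the summit 24 bp inside the gene, 18 fragments (10.7 to 28.4) and a fold enrichment of 11.4. At sox17a.S it spanned 6S:100710448-100710710 with the summit 36 bp outside the gene, 29 fragments (19.4 to 41.6) and a fold enrichment of 16.5. The latter shared the highest coverage of all 89 regions with a region at sox17b.1.L. Of the 16478 protein-coding genes with a region at an end, 30.5% had one at least as well covered as that of sox17a.L and 5.97% one as well covered as that of sox17a.S. The ratio of L to S was 0.621, and its exact 95% interval of 0.325 to 1.16 includes equal coverage.

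The neighbouring gene sox17b.1, a second Sox17 gene, showed the copies in the other order. Its region had 29 fragments at sox17b.1.L, 82 bp from the gene, and 18 at sox17b.1.S, 28 bp from the gene, a ratio of 1.61 with an interval of 0.865 to 3.08. The sum of both Sox17 end regions was therefore the same number of fragments on each subgenome, while the stronger one belonged to sox17a on S and to sox17b.1 on L. Neither ratio differed from 1 beyond counting error. The Sox17 genes resemble each other and the authors kept only reads that map well to a single place, so coverage at near-identical stretches can be too low, which was not tested.

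The number of called distal regions around sox17a differed between the copies. sox17a.L had 9 regions within 50 kb and sox17a.S had 6, of which 7 and 2 were distal. A gap as wide in all regions was found in 39.7% of all homeolog pairs, and the gap in distal regions was not set beside other pairs. Close to sox17a.L stood a strong distal region at 6L:122895932-122896161, 3043 bp beyond the left end, with 13 fragments (6.92 to 22.2) and a fold enrichment of 8.38. A weaker one lay 1091 bp from the same end with 9 fragments, and another with 7 fragments inside the gene. On the S copy, the regions at a like distance, 2206 and 2587 bp beyond the left end, had 10 and 12 fragments and lay 192 and 573 bp from an end of the lncRNA gene LOC108695296, so they did not count as distal. The difference in distal regions thus turns in part on an annotated lncRNA. Between sox17a and sox17b.1, 10292 bp on L and 12844 bp on S, there was 1 distal region on L with 12 fragments, 2687 bp from sox17b.1.L, and there were 2 on S with 10 fragments each, 2760 and 2187 bp from sox17b.1.S.

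**Figure D2:**
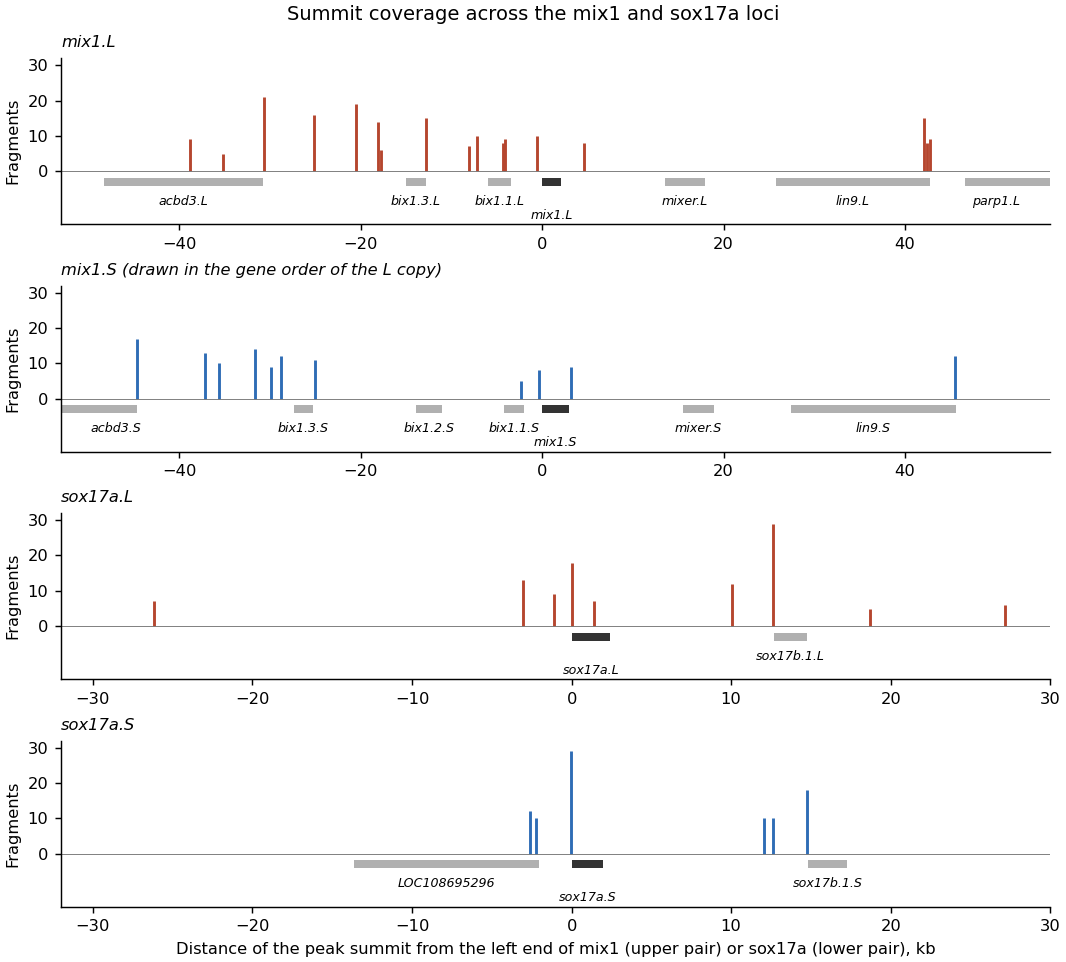
Lines show the fragments at each summit against its distance from the left end of mix1 (upper 2 panels) or sox17a (lower 2 panels) in kb, with genes as bars below each panel. The stretch between acbd3 and bix1.3 holds the strongest distal regions of the mix1 locus on both subgenomes, no region lies between mixer and lin9, and the taller of the 2 Sox17 end regions is at sox17b.1 on L and at sox17a on S.

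mix1 lies in a cluster of Mix/Bix homeobox genes, at 5L:18003801-18005890 (2090 bp) and at 5S:12072933-12075865 (2933 bp). The S cluster runs in the opposite direction, with 0 of 22 shared neighbours within 1 Mb on the same side. The end regions of mix1 itself were weak. mix1.L had 1, at 5L:18003187-18003344, 528 bp beyond the end that faces bix1.1, with 10 fragments (4.80 to 18.4) and a fold enrichment of 5.81. mix1.S had 1 at each end, 356 bp away on the bix1.1 side with 8 fragments and 252 bp away on the mixer side with 9 fragments (4.12 to 17.1) and a fold enrichment of 6.15. Coverage at least as high was found at 79.1% of genes with an end region for mix1.L and at 86.3% for mix1.S. The ratio of the strongest end regions was 1.11, with an interval of 0.406 to 3.09. This ratio sets the bix1.1 side of mix1.L against the mixer side of mix1.S.

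The windows of mix1 were nevertheless among the richest of the regulators, with 17 regions at mix1.L and 11 at mix1.S. At least as many were found near 3.69% and 10.8% of protein-coding genes. For most of them the nearest gene end was one of a Bix gene, acbd3 or lin9, and it was one of mix1 for 2 at each copy. Each window also holds 6 other annotated genes.

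The strongest distal regions of the cluster lay in the stretch between acbd3, which encodes a Golgi protein, and bix1.3, a Mix/Bix homeobox gene. On L this stretch of 15692 bp held 5 regions, 4 of them distal. The strongest distal one, at 5L:17983241-17983440, had 19 fragments (11.4 to 29.7) and a fold enrichment of 11.2, and lay 5430 bp from bix1.3.L and 20451 bp from mix1.L. Further ones had 16 fragments and a fold enrichment of 8.25, 25157 bp from mix1.L, and 14 fragments and a fold enrichment of 8.27, 18107 bp from it. On S the corresponding 17268 bp held 6 regions, 5 of them distal, and the strongest, at 5S:12107378-12107596, had 14 fragments (7.65 to 23.5) and a fold enrichment of 8.47. Summed over the stretch the summits had 76 fragments on L and 75 on S, which includes the end regions of acbd3 and depends on which regions were called. The intervals of the highest distal summits, 19 on L and 14 on S, overlap. Whether single regions correspond between L and S was not determined, since no genome sequence was used here.

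The part of the cluster between bix1.3 and bix1.1 differed in the gene content itself. It spans 6896 bp on L and 21041 bp on S, where it also holds bix1.2.S. There were 3 regions on L, with 15, 7 and 10 fragments, and 1 on S with 11 fragments. The region at the end of bix1.3 had 15 fragments at bix1.3.L and 11 at bix1.3.S, and bix1.1 had 9 and 5, each pair within counting error (ratios 1.36, 0.585 to 3.28, and 1.80, 0.542 to 6.84). bix1.2.S had no region nearer than 8733 bp.

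On its other side mix1 faces mixer, the gene of another Mix-type homeodomain regulator of endoderm, and there the chromatin had few called regions. Between mix1 and mixer 1 region was called on each subgenome, with 8 fragments on L, 2496 bp from mix1.L, and 9 on S, the one at the end of mix1.S. The region nearest to mixer was 9003 bp away on L and 12299 bp away on S, and none was called between mixer and lin9 on either subgenome. Beyond them, lin9, which encodes a subunit of a cell cycle transcription complex, had regions at its far end with up to 15 fragments at lin9.L and 12 at lin9.S. Those of acbd3, at the opposite border, had 21 fragments and a fold enrichment of 13.5 at acbd3.L and 17 and 11.1 at acbd3.S. The best covered regions in both mix1 windows were thus those of acbd3, a gene outside the endoderm program.

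gata4, which encodes a zinc-finger factor of endoderm and heart, was the regulator without a region at its ends. Its copies lie at 5L:162181089-162255995 (74907 bp) and 5S:137067260-137104005 (36746 bp). Neither copy having an end region was seen in 27.4% of 7759 homeolog pairs, and both having one in 52.9% of pairs, as in the 4 other pairs described here. The nearest summit was 8204 bp from gata4.L, outside the gene, and 3173 bp from the end of gata4.S, inside it. The former had 19 fragments and a fold enrichment of 12.3 and lay inside neil2.L, a DNA repair gene, 946 bp from its end.

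Regions inside gata4 were common, and they stood at different distances from the annotated gene ends in the copies. Whether single regions correspond between gata4.L and gata4.S was not determined, since no genome sequence was used here. Inside gata4.L there were 8, with 6 to 16 fragments. They lay from 23143 bp past the left end to 17579 bp before the right end, and none was within 10 kb of an end. The best covered, at 5L:162219394-162219566, had 16 fragments (9.15 to 26.0) but a fold enrichment of 4.65 over a high local background from the control, 2.65 fragments. The region of highest fold enrichment inside gata4.L was at 5L:162221883-162222058, with 12 fragments and 7.57. Inside gata4.S there were 4, of which 3 lay together within 3173 to 3953 bp of the right end. The strongest of these, at 5S:137100767-137100929, had 15 fragments (8.40 to 24.7) and a fold enrichment of 8.82, and was the only strong region inside gata4.S. gata4.L is the longer gene, so that more of its own sequence falls within the window.

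Beyond the left end of gata4 the strongest regions lay at neighbouring genes. fdft1, which encodes squalene synthase, had an end region with 26 fragments and a fold enrichment of 16.6 at fdft1.L and with 25 and 12.6 at fdft1.S, a ratio of 1.04 with an interval of 0.577 to 1.88. These places were 31260 bp from gata4.L and 11592 bp from gata4.S. ctsb.S, the gene of the lysosomal protease cathepsin B, had the highest fold enrichment in the window of gata4.S, 16.9 with 28 fragments, 45426 bp away. The best covered distal region of all 10 windows, at 5S:137052868-137053025 with 22 fragments (13.8 to 33.3) and a fold enrichment of 11.2, lay inside fdft1.S, 2609 bp from its end and 14296 bp from gata4.S. On L a distal region with 14 fragments and a fold enrichment of 9.22 lay inside fdft1.L, 1524 bp from its end. In all, gata4.L had 15 regions and gata4.S 14, and the nearest gene end was one of gata4 for 8 and 4 of them.

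gata5, of the same zinc-finger family, had the weakest surroundings. The copies lie at 9_10L:14594386-14625800 (31415 bp) and 9_10S:13236806-13269758 (32953 bp), and gata5.L lies within a longer lncRNA gene, LOC108700924. They had 5 and 6 regions within 50 kb, none with more than 8 fragments and none strong. At the left end each copy had a pair of regions. At gata5.L these lay 414 and 58 bp outside the gene with 8 fragments each (3.45 to 15.8), and at gata5.S 339 and 20 bp outside it with 8 and 6. The outer region had a fold enrichment of 3.47 at both copies and the inner one 4.96 at gata5.L and 3.99 at gata5.S. Among genes with an end region, 92.4% had one at least as well covered as those of gata5.

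The remaining regions of gata5 were at or below the median coverage of the list. Inside the gene, gata5.L had regions with 8 fragments 2358 and 10372 bp past the left end, the second with the highest fold enrichment of the copy, 5.31. gata5.S had 1 inside, 11632 bp past it, with 6 fragments. The 4 other distal regions, 1 at gata5.L and 3 at gata5.S, lay at least 30692 bp outside the genes with 6 or 7 fragments, and the highest fold enrichment near gata5.S was 4.92, at 46106 and 38695 bp.

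gata6 had the fewest regions but a strong one at its end. The copies lie at 6L:115719118-115744533 (25416 bp) and 6S:94850207-94878758 (28552 bp), with no other protein-coding or lncRNA gene within 50 kb. The end region of gata6.L, at 6L:115718801-115719213, had its summit 138 bp outside the gene, 25 fragments (16.2 to 36.9) and a fold enrichment of 13.3. That of gata6.S, at 6S:94849798-94850329, had its summit 106 bp outside, 22 fragments (13.8 to 33.3) and a fold enrichment of 13.4. Their ratio was 1.14 with an interval of 0.615 to 2.11. Coverage at least as high was found at 11.1% and 17.2% of genes with an end region.

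Away from this end little was called at gata6. gata6.L had 3 more regions, 2026 bp outside the left end with 10 fragments, 1199 bp inside it with 7 and 4548 bp beyond the right end with 5. gata6.S had 1 more, 3334 bp outside the left end, with 10 fragments and a fold enrichment of 6.72. All of these lay within 10 kb of the gene, and the rest of both 50 kb windows, although free of other genes, held none. As many regions or more were found near 47.0% of all genes for gata6.L and near 71.2% for gata6.S, so in number gata6.S was the 1 copy below the median gene.

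**Figure D3:**
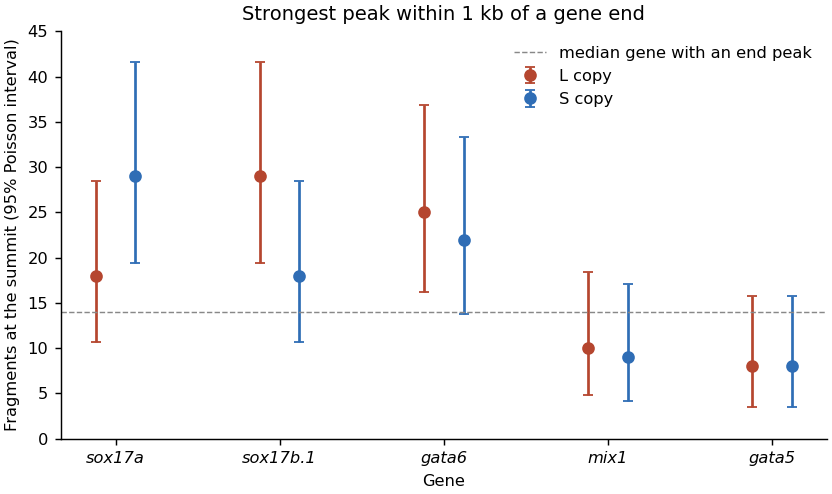
Points are the fragments at the summit of the strongest region within 1 kb of a gene end, with exact 95% Poisson intervals as bars, for the L (red) and S (blue) copies, and the dashed line is the median of 14 over all protein-coding genes with such a region. sox17a, sox17b.1 and gata6 lie above the line on both subgenomes and mix1 and gata5 below it. The intervals of L and S overlap for each gene. For mix1 the L and S regions lie at opposite ends of the gene, and for gata5 at different distances from the same end.

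The end regions thus ran from strong to weak in the order sox17a.S (29 fragments), gata6.L (25), gata6.S (22), sox17a.L (18), mix1.L (10), mix1.S (9), gata5.L (8) and gata5.S (8), with none called at gata4. The median over all genes with an end region was 14 fragments. Neighbours in this order had overlapping intervals. The interval of sox17a.S, 19.4 to 41.6, lay above those of mix1 and gata5, and that of gata6.L, 16.2 to 36.9, above that of gata5, which ended at 15.8. Between the strongest end regions of L and S, none of the 4 pairs differed beyond counting error. For mix1 these regions lay at opposite ends of the gene. For gata5 they lay at the same end, but 58 bp from it on L and 339 bp on S.

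In the number of regions, L copies were ahead by 11 over the 5 pairs within 50 kb, which rests largely on mix1. L minus S was 6 for mix1, 3 for sox17a, 2 for gata6, 1 for gata4 and -1 for gata5. A gap at least as wide in either direction was found in 13.1% of all homeolog pairs for mix1, in 39.7% for sox17a, in 57.6% for gata6 and in 83.9% for gata4 and gata5. Over all pairs, L copies had 5.61 regions on average and S copies 4.97. Within 10 kb the difference was 3 for mix1, 2 for sox17a and gata6, 1 for gata5 and -3 for gata4. The sum did not keep its sign. Among regions with at least the median fold enrichment it was -3, since sox17a then had 3 regions at each copy, mix1 8 at each, gata4 6 at L and 8 at S, gata5 none, and gata6 1 and 2. Among strong regions it was 2.

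**Figure D4:**
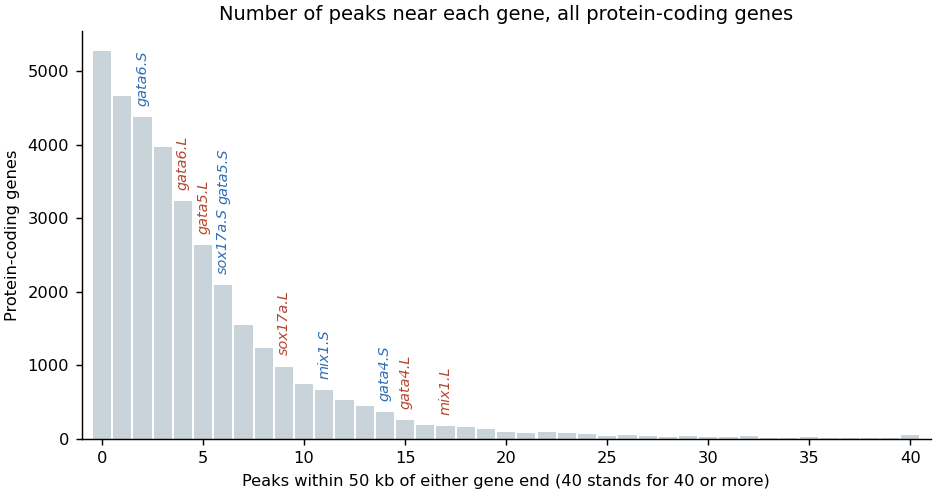
Bars count protein-coding genes by the number of accessible regions within 50 kb of either end, with 40 standing for 40 or more, and the names mark the bar of each regulator copy (L red, S blue). Of the 10 copies, 9 lie above the median gene, which has 3 regions, and mix1.L lies farthest out with 17.

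Within 10 kb, the median number of regions was lower at the endoderm regulators than in the list of animal cap ectoderm genes. The regulators had a median of 3, from 1 at gata4.L to 6 at mix1.L, against 1 for the median protein-coding gene. The 29 copies of animal cap ectoderm genes had a median of 7, and gata2 and gata3 are among them. They ran from 0 at dlx3.L, krt18.1.L and krt18.1.S to 16 at gata2.L, so the ranges of both lists overlap. The ectoderm list also holds sox3 and the pou5f3 genes, and the study describes Pou5f3.3 and Sox3 as pluripotency factors. The pou5f3.1, pou5f3.2 and pou5f3.3 copies lie close together on 8L and on 8S, so their windows count some regions more than once. They had 14, 10 and 9 regions within 10 kb on 8L and 5, 13 and 13 on 8S. The median of 7 includes these copies and would be lower without them, though its value was not taken. Some other ectoderm copies lay within the range of the regulators, such as foxi1.L (2), foxi1.S (3), grhl3.L (3) and grhl3.S (2). Others lay above it, such as tfap2a.L and tfap2a.S (11 each) and dlx5.L (14). gata2.L had 16 regions within 10 kb, and gata2.S, gata3.L and gata3.S had 9 each, while the 6 endodermal GATA copies had 1, 4, 3, 2, 4 and 2. Within 50 kb the groups overlapped, with 26, 11, 14 and 12 regions at gata2.L, gata2.S, gata3.L and gata3.S, and 15 and 14 at gata4.L and gata4.S, 5 and 6 at gata5 and 4 and 2 at gata6. The coverage of the strongest end region overlapped too, with 25, 14, 12 and 11 fragments at the copies of gata2 and gata3, 25 and 22 at gata6, 8 and 8 at gata5 and none called at gata4. gata1.L and gata1.S, which belong to neither group, had 2 and 4 regions within 10 kb and 23 and 14 within 50 kb, with none called at an end. Low counts within 10 kb were thus not particular to the endodermal GATA copies. The lists were chosen with earlier results of these data known, and the differences between them were not tested.

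Other genes of the endoderm pathway were similar to the 10 copies in number, but the counts are not independent. The sox17b.1, mixer and Bix copies lie beside sox17a or mix1, so their windows count many of the same regions. Within 50 kb, sox17b.1.L and sox17b.1.S had 9 and 6, as sox17a.L and sox17a.S did, and bix1.1.L had 17, as mix1.L did. The other endoderm regulators, 26 copies, had a median of 3 regions within 10 kb and 6 within 50 kb, and 16 had an end region, 16 a distal one within 10 kb and 20 a strong one within 50 kb, beside 47.8%, 35.9% and 50.6% of all protein-coding genes. Among genes with a name the first 2 shares were 60.9% and 40.9%, so the count of end regions was near that background. In this list vegt.S, the gene of the maternal T-box determinant, had the most regions within 10 kb. vegt.S had 15 regions within 10 kb and an end region with 31 fragments, and vegt.L had 9 and 14. eomes.L, of a related T-box gene, had 5 and 20, and eomes.S had 4 and 8. For the Nodal pathway, 29 copies of ligands, receptors and transducers had a median of 2 within 10 kb and 5 within 50 kb. foxh1.L, which encodes the DNA-binding partner of activated Smad proteins, led with 17 within 10 kb. nodal5.L, nodal6.L and nodal6.S, which encode Nodal ligands, had no region within 50 kb, as had 5277 of 34461 protein-coding genes. The windows of nodal5.L and nodal6.L overlap.

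The lists of other tissues had lower medians. The 12 mesoderm copies had a median of 1 region within 10 kb and 2 within 50 kb, and 3 had an end region, where 47.8% of all genes had one. tbx6.L had 26 within 50 kb and myod1.S 19, and tbxt.L and myf5.S had none. Within 10 kb, myod1.L and myod1.S had 8 and 13 regions, more than any of the 10 regulator copies. Their strongest end regions had 56 and 16 fragments, the former above all those of the regulators. The other mesoderm copies had at most 2 regions within 10 kb. The 6 germ plasm genes, whose RNAs lie in vegetal cells, had a median of 0.5 within 10 kb and 4 within 50 kb. The 16 copies of genes for globins, muscle proteins and products of gut, pancreas and liver had a median of 0 and 0.5, and 1 had an end region. Of these 16 copies, 8 had no region within 50 kb, where 5277 of 34461 protein-coding genes had none. Among the 8 were the globin genes hba1.L, hbg1.L and hba3.L, the albumin gene alb.S and the insulin genes ins.L and ins.S. The others were the cardiac actin gene actc1.L and the trypsin gene prss1.L. The endoderm regulators were thus above the lists of late organs and below the animal cap ectoderm list in regions within 10 kb. These are medians of lists that differ in gene length and neighbours, and the pou5f3 copies with shared windows raise that of the ectoderm list.

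**Figure D5:**
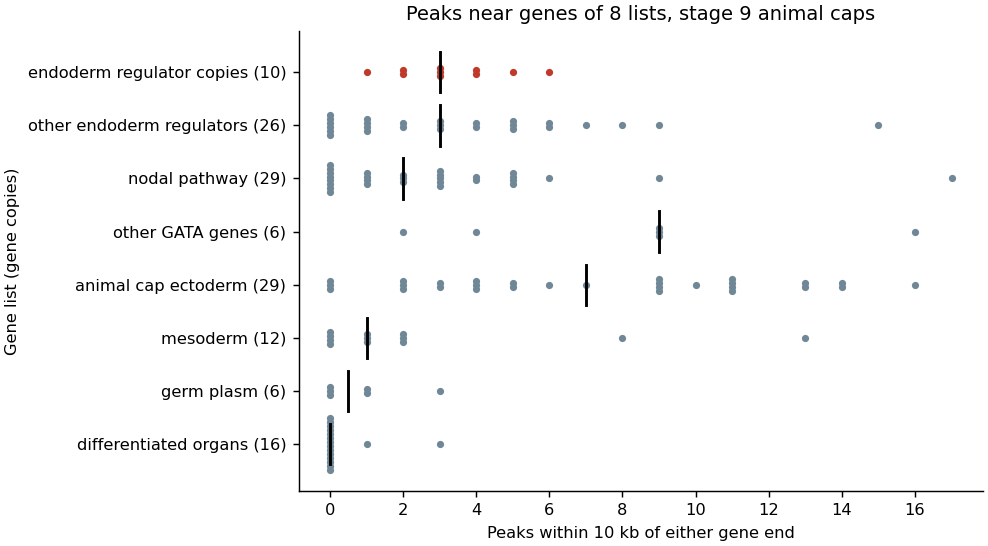
Each point is 1 gene copy, placed by the number of accessible regions within 10 kb of either end, with 1 row for each gene list, its number of copies in parentheses and its median as a black line. The 10 endoderm regulator copies (red) lie between 1 and 6 with a median of 3. The animal cap ectoderm list has a median of 7, raised by pou5f3 copies with shared windows, and the differentiated organ list a median of 0.

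The rule ends at 50 kb, and nothing in the data marks that distance. The farthest regions inside it lay 45426 bp from gata4.S (28 fragments), 46106 bp from gata5.S (7) and 48799 bp from gata4.L (7). The first ones outside it lay 52025 bp from gata5.L (7 fragments) and 53660 and 56301 bp from gata4.L (12 and 10).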

How the data were processed

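ATAC-seq libraries of animal caps were made from WT embryos at 2 stages. According to the methods and the submitters' processing notes (which name Bowtie2 2.4.2, MACS2 2.2.7.1 and bedtools 2.30.0), pairs were aligned to X. laevis v10.1, those placed with confidence and of sub-nucleosomal length were kept, and peaks were called on the pooled stage 9 libraries, with CUT&RUN libraries without antibody, a different assay, as the control. Peaks over structural RNA genes were removed. For each peak the authors deposited a fold enrichment (a ratio), −log10 p- and q-values, a score and the summit offset. The depth of single libraries is unknown here.

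From these values the coverage and background at each summit were solved (Python 3.11.15, scipy 1.17.1, pandas 2.3.3). For 58217 of 58223 peaks (99.99%), all 89 described here among them, whole fragments gave back the deposited p-value (relative tolerance 0.0001). The procedure was tested on simulated data. Gene ends came from a RefSeq gene table of v10.1, without strand or exons. The L to S ratio of fragments has an exact conditional 95% interval. No test was run, since 1 pooled list has no replicates.

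All 10 copies are named, with for each copy the nearest region, the one of highest fold enrichment and those with 15 or more fragments or a −log10 q of at least 10. Neighbouring genes are named at whose ends these lie. gata2, gata3, vegt, eomes and up to 3 leading copies of each other list, with any copy without a region, are named too. gata1, bix1.2, foxi1, grhl3, tfap2a, dlx5, myod1.L, sox17a's lncRNA neighbour and weaker regions were added after their values were seen. The members and gene lists were chosen with earlier results of these data known. Alternatives were 2 stricter peak limits, overlap in place of the summit, peaks nearest to an end of the regulator, other windows and named genes as background.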

Additional observations from a re-analysis of the deposited data

How the results depend on the processing

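Among the 29 values from alternatives, 16 stayed close to the reported ones, 12 moved and 1 changed sign. With regions of −log10 q of at least 10 alone, there were 20 regions in place of 89, copies with an end region were 4 in place of 8 (22.9% of all genes), with a distal region within 10 kb 2 in place of 6 (6.76%) and within 50 kb 5 in place of 10 (17.6%), and L minus S was 2 in place of 11. With at least the median fold enrichment, there were 39 regions, 3 copies with a distal region within 10 kb (18.3%), 6 within 50 kb (41.3%), and L minus S was -3. Stricter limits keep fewer regions by construction. Regions whose nearest gene end was one of the regulator itself were 35. A window of 20 kb gave 48 regions and an L minus S of 6, and one of 100 kb an L minus S of 24. End windows of 500 bp and 2 kb gave 7 and 8 copies (44.6% and 50.5%). Positions from the gene start alone were not run, since the gene table used here gives no strand. No replicate could be left out. No paired analysis was possible because the only list analysed here pools all stage 9 libraries. With 5 to 29 fragments at a summit, depth limits every comparison between copies.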

Other observations

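Coverage at the strongest end regions of acbd3 and lin9, which flank the mix1 cluster, did not differ between the subgenomes beyond counting error. The ratio of L to S was 1.24 for acbd3 and 1.25 for lin9, and the exact 95% intervals of 0.621 to 2.49 and 0.546 to 2.92 include equal coverage. For lin9 the places differ, 666 bp from the end on L and 57 bp on S. The lin9.L region 28 bp from that end had 9 fragments, against 12 at lin9.S. sox7, the gene of a Sox factor related to Sox17 and chosen here after its values were seen, had an end region with 13 fragments at sox7.L, 95 bp from the gene. At sox7.S the nearest region lay 21191 bp away, with 27 fragments and a fold enrichment of 15.9. Within 50 kb, sox7 had 4 regions at L and 1 at S, and this difference was not tested. A gap at least as wide in either direction was found in 39.7% of all homeolog pairs.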
